A study of Mus musculus with 10 samples.

Results

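The genes described here are 10 germ cell and meiosis genes that are active in mouse embryonic stem cells (ESCs): *Dazl*, *Ddx4*, *Mael*, *Asz1*, *Slc25a31*, *Sycp3*, *Hormad1*, *Stag3*, *Smc1b* and *Tuba3a*. They were listed by name, with earlier results of these data known, and are 10 of the 24370 genes in the deposited table. All 10 were among the 14706 genes with 0.5 TPM or more in at least 2 libraries. TPM, the unit of the table, is a read count divided by gene length and brought to a common total, so that levels of different genes can be compared per length. The series measured mRNA of ESCs, purified with poly-T beads, in 5 groups of 2 libraries each, and asked how the deubiquitinase gene *Usp17le* and the transcription factor gene *Dux* act together on genes of the 2-cell embryo. *Usp17le* OE cells received an overexpression plasmid of *Usp17le* with puromycin selection. *Usp17le* OE-*Dux* KD cells were such overexpressing cells given a short hairpin RNA (shRNA) against *Dux*. *Dux* KD-*Usp17le* OE cells carry the same pair in the opposite order, the plasmid being given to knockdown cells, *Dux* KD cells received the hairpin alone with the same selection, and WT cells were cultured without either. The labels name the line J1 for every group, a line that the study's methods describe as feeder-free, whereas those methods name the E3 line, grown on feeder fibroblasts, for overexpression and knockdown of *Usp17l* genes. WT cells received neither a plasmid without insert nor a hairpin without target, so what transfection and selection add to a difference from WT cannot be told apart from *Usp17le* or *Dux* themselves. The labels do not say that the 2 libraries of a group came from separate cultures, and p-values then reflect only how far these libraries scatter, possibly for technical reasons.

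Germ cells use a set of proteins that most other cells do not make. DAZL and DDX4 handle germ cell mRNAs, MAEL and ASZ1 belong to the piRNA pathway that silences transposons, SYCP3 and HORMAD1 build the axis of meiotic chromosomes, and STAG3 and SMC1B are cohesin subunits that hold sister chromatids together in meiosis. In ESCs many of these genes are kept low by DNA methylation and by PRC1.6, a Polycomb complex that finds CpG-rich promoters through E2F6 and through the MGA and MAX pair, while *Dux* switches on genes of the 2-cell embryo.

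*Usp17le* followed its label in 2 of the 3 groups labelled as overexpressing. It had 28.7 and 35.6 TPM in *Usp17le* OE and 11.1 and 10.6 TPM in *Usp17le* OE-*Dux* KD, against 1.77 and 0.649 TPM in WT. *Usp17le* was thus lower where the hairpin had been added. In comparisons of *Usp17le* OE-*Dux* KD with *Usp17le* OE, the hairpin and this lower *Usp17le* level cannot be told apart. The relatives *Usp17la*, *Usp17lb*, *Usp17lc* and *Usp17ld*, which no plasmid carried, had the same order of means in these groups. *Usp17lb* averaged 67.5 TPM in *Usp17le* OE, 14.3 TPM in *Usp17le* OE-*Dux* KD and 1.77 TPM in WT. *Usp17le* RNA from the plasmid and from the cells' own gene therefore cannot be told apart. The libraries labelled *Dux* KD-*Usp17le* OE had 0.941 and 1.63 TPM of *Usp17le*, which overlaps WT, so their label was not borne out at the RNA level, and *Dux* KD had 0.466 and 0.424 TPM. Leaving those 2 libraries out of the fit changed no call of any member among the remaining comparisons. *Dux* was low everywhere, and in *Usp17le* OE-*Dux* KD it was below *Usp17le* OE but not below WT. It had 2.05 and 1.87 TPM in *Usp17le* OE and 0.435 and 0.416 TPM in *Usp17le* OE-*Dux* KD. It had 0.119 and 0.0542 TPM in *Dux* KD-*Usp17le* OE libraries and 0.102 and 0 TPM in *Dux* KD, against 0.118 and 0.259 TPM in WT. *Dux* KD lay below both WT libraries, but on 4 and 0 reads against 5 and 12. That difference did not pass the test (-0.98 ± 0.54 log2, SE, adjusted p = 0.134 by limma), so the knockdown was not called at the RNA level. Libraries held 32188285 to 50457228 reads on genes. In these TPM values the median gene was itself above WT, by a log2 value of 0.26 for *Usp17le* OE cells, 0.56 for *Usp17le* OE-*Dux* KD cells, 0.29 for *Dux* KD-*Usp17le* OE cells and 0.38 for *Dux* KD cells, so differences are also given, wherever this alters them, after scaling each library by the median ratio of its genes to their geometric means.

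Markers of ESCs were high, and those of spermatids and oocytes were mostly near 0. The 8 ESC markers (*Pou5f1*, *Nanog* and others) summed to 5939 to 6181 TPM in *Usp17le* OE and 4868 to 4878 TPM in WT. They did not move together. By limma 3 were called higher and 3 lower in *Usp17le* OE than in WT (3 and 5 after scaling), where 45.5% and 20.9% of all genes tested were. *Zfp42* averaged 1703 and 471 TPM and *Nanog* 755 and 268 TPM, but *Pou5f1* 1615 and 1729 TPM and *Tdgf1* 1302 and 1723 TPM. Of 10 spermatid markers, 7 were under 0.5 TPM in every library, and their sum was 1.74 to 4.22 TPM in *Usp17le* OE and 0.735 to 1.23 TPM in WT. The 12 oocyte markers summed to 8.69 to 11.2 TPM in *Usp17le* OE and 8.29 to 9.06 TPM in WT, with 6 of them under 0.5 TPM in every library. The 8 Sertoli cell markers summed to 272 TPM in both *Usp17le* OE libraries and 270.3 to 281 TPM in WT, most of it *Rhox5*, at a mean of 269 and 274 TPM. Spermatogonium markers, a list of 9 that holds *Dazl* and *Ddx4*, summed to 501 to 520.1 TPM in *Usp17le* OE and 299 TPM in both WT libraries, and 5 of 7 tested were called higher and 0 lower there by limma, where 45.5% and 20.9% of all genes tested were (5 and 1 after scaling, and 5 and 0 at an unadjusted p under 0.05). *Rhox13* averaged 112 TPM in *Usp17le* OE and 55.4 TPM in WT, *Sall4* 73.4 and 39.0 TPM and *Uchl1* 141 and 96.6 TPM. Others of the list were far less abundant. *Gfra1* averaged 0.846 and 0.692 TPM, *Id4* 2.72 and 0.619 TPM and *Zbtb16* 0.0805 and 0.301 TPM, while *Nanos2* was at 0 in every library. The part of these markers in the results was not tested. The summed fibroblast markers differed between the groups, through *Acta2* above all. The sum over 12 genes was 28.5 to 28.8 TPM in *Usp17le* OE, 48.4 to 51.0 TPM in *Usp17le* OE-*Dux* KD, 103 to 105 TPM in *Dux* KD-*Usp17le* OE and 73.6 to 78.0 TPM in *Dux* KD, against 87.7 to 89.4 TPM in WT. Of this, *Acta2* averaged 1.96 TPM in *Usp17le* OE and 48.1 TPM in WT. *Tagln* (9.23 and 17.5 TPM), *Pdgfrb* (2.47 and 6.04 TPM) and *Col1a1* (0.819 and 1.48 TPM) had lower means there too. The less abundant *Pdgfra* averaged 0.906 and 0.540 TPM and *Col1a2* 0.656 and 0.107 TPM. Of 8 tested, 1 was called higher and 4 lower by limma, where 45.5% and 20.9% of all genes tested were (1 and 5 after scaling). The part of these markers too was not tested. Since RNA was taken from whole cultures, fewer cells that express a gene and less of its RNA per cell cannot be told apart.

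The start regions of 6 genes are printed here because they belong to genes that moved in different directions. *Slc25a31* and *Sycp3* were higher in *Usp17le* OE, *Stag3* and *Smc1b* were lower there, and *Tuba3a* and its near copy *Tuba3b* were highest in *Usp17le* OE-*Dux* KD. Each run covers 250 bases before to 50 bases after the start (RefSeq, build GRCm38.p6, read 5′ to 3′ on the gene's strand). Capitals mark GCGGGAA, the core of the E2F6 site, and CACGTG, the E-box that MGA and MAX bind, searched on both strands, so the E2F6 core also appears as its complement TTCCCGC. The windows are *Slc25a31* chr3:40708621-40708920 (plus strand), *Sycp3* chr10:88459337-88459636 (plus), *Stag3* chr5:138280259-138280558 (plus), *Smc1b* chr15:85131908-85132207 (minus), *Tuba3a* chr6:125286032-125286331 (minus) and *Tuba3b* chr6:145615713-145616012 (plus).
Slc25a31: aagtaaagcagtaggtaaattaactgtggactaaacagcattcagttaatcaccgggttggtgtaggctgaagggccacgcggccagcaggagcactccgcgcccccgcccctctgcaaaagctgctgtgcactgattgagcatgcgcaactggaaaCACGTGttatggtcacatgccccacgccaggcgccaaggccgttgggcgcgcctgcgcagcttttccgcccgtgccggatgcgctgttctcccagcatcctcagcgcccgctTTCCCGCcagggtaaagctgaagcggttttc
Sycp3: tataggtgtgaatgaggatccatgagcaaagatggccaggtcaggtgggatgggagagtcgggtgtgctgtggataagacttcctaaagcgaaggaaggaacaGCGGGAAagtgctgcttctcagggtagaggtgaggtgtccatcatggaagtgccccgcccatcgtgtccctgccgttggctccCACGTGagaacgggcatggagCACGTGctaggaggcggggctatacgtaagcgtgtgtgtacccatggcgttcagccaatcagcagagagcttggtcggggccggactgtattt
Stag3: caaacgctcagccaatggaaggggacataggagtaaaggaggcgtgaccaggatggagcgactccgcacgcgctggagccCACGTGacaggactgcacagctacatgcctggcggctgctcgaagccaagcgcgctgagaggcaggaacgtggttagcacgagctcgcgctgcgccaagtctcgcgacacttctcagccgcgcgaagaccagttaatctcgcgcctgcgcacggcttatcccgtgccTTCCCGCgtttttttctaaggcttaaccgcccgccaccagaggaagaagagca
Smc1b: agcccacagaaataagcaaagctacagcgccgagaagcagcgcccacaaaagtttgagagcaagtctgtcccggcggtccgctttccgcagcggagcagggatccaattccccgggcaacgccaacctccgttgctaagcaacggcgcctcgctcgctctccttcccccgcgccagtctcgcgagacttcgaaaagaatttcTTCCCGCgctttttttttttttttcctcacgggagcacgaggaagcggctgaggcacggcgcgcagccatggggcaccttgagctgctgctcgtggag
Tuba3a: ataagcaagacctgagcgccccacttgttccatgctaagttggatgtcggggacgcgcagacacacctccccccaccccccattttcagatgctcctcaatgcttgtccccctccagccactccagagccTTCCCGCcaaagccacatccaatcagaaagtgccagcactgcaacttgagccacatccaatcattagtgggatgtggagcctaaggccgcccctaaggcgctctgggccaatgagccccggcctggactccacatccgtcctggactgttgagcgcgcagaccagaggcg
Tuba3b: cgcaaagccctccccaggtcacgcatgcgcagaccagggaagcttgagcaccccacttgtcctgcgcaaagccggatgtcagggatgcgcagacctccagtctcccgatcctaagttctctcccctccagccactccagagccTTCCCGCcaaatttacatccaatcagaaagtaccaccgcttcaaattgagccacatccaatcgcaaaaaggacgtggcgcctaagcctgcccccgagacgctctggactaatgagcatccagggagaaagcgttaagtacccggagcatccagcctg

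All 10 members had a window in the RefSeq table. The E2F6 core was found in 7 of them (*Ddx4*, *Sycp3*, *Hormad1*, *Slc25a31*, *Stag3*, *Smc1b* and *Tuba3a*), where 4.60% of 32851 gene windows of this length hold it. The E-box was found in 6 (*Ddx4*, *Sycp3*, *Hormad1*, *Slc25a31*, *Stag3* and *Mael*), where 7.15% of windows hold it. Both stood in 5 members, against 0.457% of windows, and neither letter run was found in *Dazl* and *Asz1*. The 10 windows held 12 to 38 CpG, with a median of 24 against 7 for all windows. Both letter runs contain a CpG and the background was not matched for CpG, so an excess beyond CpG content was not tested. A further run, TCTCGCG, was noticed only after the sequences had been read. It was found in *Stag3* and *Smc1b* alone among the members, at 2.56% of all windows, and these were the only members called lower in *Usp17le* OE on the deposited values. *Ddx4*, which lacks the run, was called lower as well after scaling. *Slc25a31* and *Stag3* carry both motifs and moved in opposite directions in *Usp17le* OE, so the motifs did not sort the members by direction. A match of letters is a description and not evidence of binding.

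**Figure D1:**
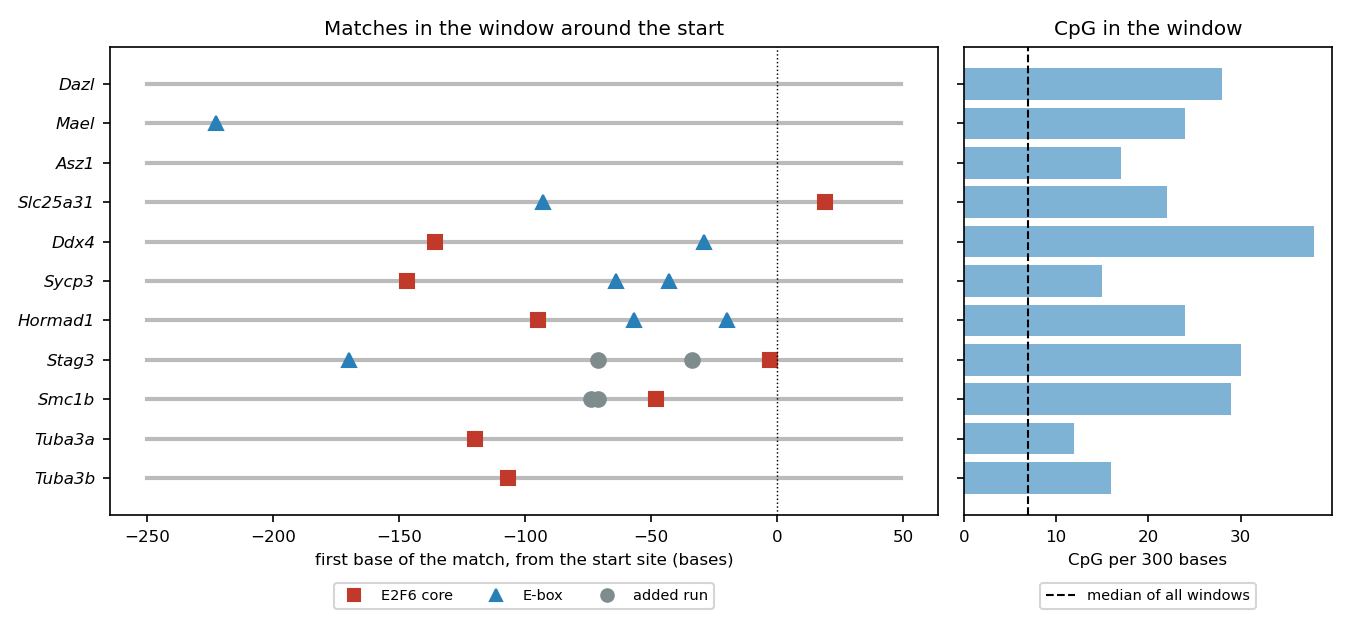
Left, position of the first base of each match (x axis, bases from the start site) in the window of each member and of *Tuba3b*; squares mark the E2F6 core, triangles the E-box and circles TCTCGCG (added run in the legend). Right, number of CpG in the 300 bases, with the median of 7 over all windows as a dashed line; every bar passes it, from 12 in *Tuba3a* to 38 in *Ddx4*.

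In *Usp17le* OE the germ cell genes were called in both directions. The piRNA genes *Asz1* and *Mael*, the carrier gene *Slc25a31*, the RNA-binding protein gene *Dazl* and the axis gene *Sycp3* were higher than in WT, and the meiotic cohesin genes *Stag3* and *Smc1b* were lower. Of the 10 members, 7 were called higher and 2 lower at an adjusted p under 0.05 (limma, Benjamini-Hochberg over all genes tested), where 45.5% of all genes tested were called higher and 20.9% lower, so the share of members called lower is near that of all genes. After scaling, 5 were higher and 3 lower. *Dux* KD gave 3 members higher and 5 lower than WT, against 51.4% and 10.7% of all genes, and 2 higher and 7 lower after scaling. When the hairpin was added to overexpressing cells, 4 members were higher and 6 lower in *Usp17le* OE-*Dux* KD than in *Usp17le* OE, against 45.7% and 18.6% of all genes, and 3 and 6 after scaling. On the log2 scale the median member was 0.46 for *Usp17le* OE cells against WT, -0.17 for *Dux* KD cells against WT and -0.35 for the hairpin added to overexpressing cells, beside medians over all genes of 0.26, 0.38 and 0.29.

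**Figure D2:**
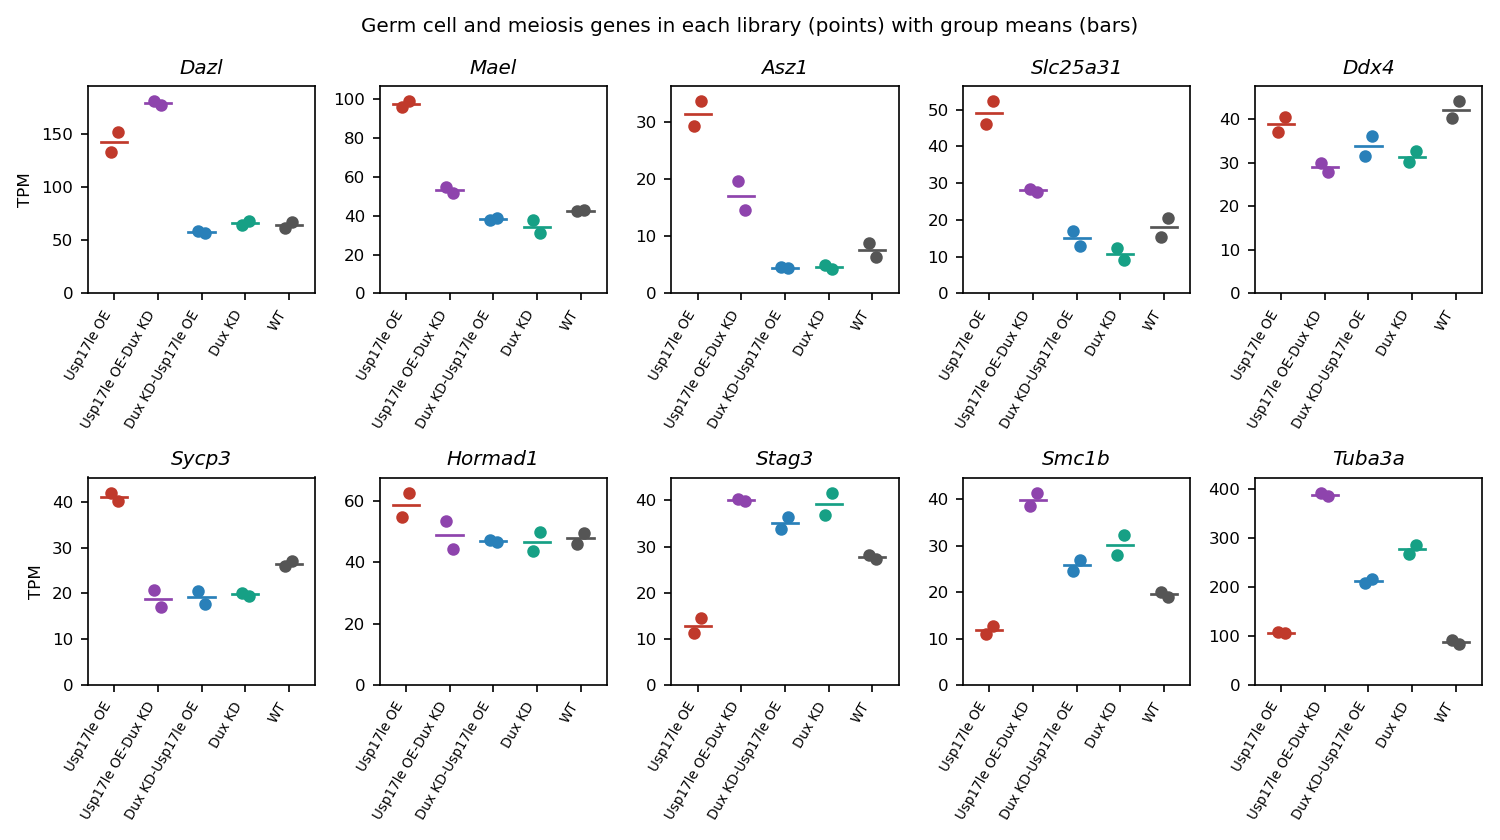
TPM (y axis, from 0) of each member in each library, 2 points a group, with the group mean as a bar. *Mael*, *Asz1*, *Slc25a31* and *Sycp3* are highest in both *Usp17le* OE libraries, *Dazl* is high in both groups with raised *Usp17le*, *Stag3* and *Smc1b* are lowest in *Usp17le* OE, and *Tuba3a* is at 208 TPM or more in every library with the hairpin.

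The genes that handle germ cell RNA behaved differently from each other. *Dazl* (chr17:50279395-50293636, minus strand, mm10) encodes an RNA-binding protein that promotes translation in germ cells. It had 133 and 151 TPM in *Usp17le* OE and 180.3 and 177 TPM in *Usp17le* OE-*Dux* KD, against 61.8 and 66.9 TPM in WT, with no overlap. *Dazl* was 2.20-fold higher in *Usp17le* OE than in WT (1.14 ± 0.068 log2, SE, n = 2 libraries a group, adjusted p = 2.51e-08 by limma). The hairpin added to overexpressing cells left it as high. *Dazl* was higher in *Usp17le* OE-*Dux* KD than in *Usp17le* OE as deposited (0.33 ± 0.068, adjusted p = 0.00099), beside 0.29 for the median gene, and 0.025 after scaling (adjusted p = 0.690). In *Dux* KD it had 63.9 and 68.2 TPM, which overlaps WT, and in *Dux* KD-*Usp17le* OE 59.0 and 56.9 TPM. Against WT *Dux* KD differed by 0.037 as deposited (adjusted p = 0.659) and by -0.36 after scaling (adjusted p = 0.000188), so the sign turns with the scale. Of the 5 genes called higher in *Usp17le* OE on both scales, *Dazl* was the one not called lower on either scale once the hairpin was added.

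*Ddx4* (chr13:112598333-112652475, minus strand), the VASA RNA helicase and a standard marker of germ cells, had 37.0 and 40.5 TPM in *Usp17le* OE, against 40.2 and 44.0 TPM in WT. The groups overlap, the difference was -0.12 ± 0.086 (adjusted p = 0.238), and after scaling it was -0.38 (adjusted p = 0.000793). Every hairpin library was below WT. *Ddx4* had 30.0 and 27.8 TPM in *Usp17le* OE-*Dux* KD, 31.4 and 36.0 TPM in *Dux* KD-*Usp17le* OE and 30.1 and 32.6 TPM in *Dux* KD. It was lower in *Dux* KD than in WT (-0.42 ± 0.086, adjusted p = 0.000864) and lower in *Usp17le* OE-*Dux* KD than in *Usp17le* OE (-0.42 ± 0.086, adjusted p = 0.000934). The first of these differences taken from the second left 0.0024 ± 0.12, which did not pass the test (adjusted p = 0.989).

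*Mael* and *Asz1* of the piRNA pathway were both higher in *Usp17le* OE than in WT. *Mael* (chr1:166201201-166238747, minus strand) encodes maelstrom, a protein of the perinuclear granules where piRNAs are made. It had 96.2 and 99.0 TPM in *Usp17le* OE, 54.8 and 51.9 TPM in *Usp17le* OE-*Dux* KD, 37.7 and 38.9 TPM in *Dux* KD-*Usp17le* OE and 37.8 and 31.1 TPM in *Dux* KD, against 42.4 and 42.8 TPM in WT. Both *Usp17le* OE libraries stood above every other library. *Mael* was 2.29-fold higher in *Usp17le* OE than in WT (1.19 ± 0.081, adjusted p = 7.15e-08) and lower in *Usp17le* OE-*Dux* KD than in *Usp17le* OE (-0.87 ± 0.081, adjusted p = 1.22e-06). In *Dux* KD it was lower than in WT (-0.31 ± 0.081, adjusted p = 0.00478), a call lost without *Dux* KD replicate 2 (-0.17, adjusted p = 0.0588) and larger after scaling (-0.71).

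*Asz1* (chr6:18050964-18109061, minus strand) encodes an ankyrin-repeat protein of the same granules and had the largest ratio to WT of the members in *Usp17le* OE. It had 29.2 and 33.6 TPM in *Usp17le* OE and 19.6 and 14.5 TPM in *Usp17le* OE-*Dux* KD, against 8.76 and 6.33 TPM in WT. In *Dux* KD-*Usp17le* OE it had 4.61 and 4.42 TPM and in *Dux* KD 4.93 and 4.32 TPM, all below both WT libraries. *Asz1* was 4.16-fold higher in *Usp17le* OE than in WT (2.06 ± 0.17, adjusted p = 6.19e-07), lower in *Dux* KD than in WT (-0.68 ± 0.17, adjusted p = 0.00393) and lower in *Usp17le* OE-*Dux* KD than in *Usp17le* OE (-0.89 ± 0.17, adjusted p = 0.000633). It rests on the fewest reads of the members, 140 to 1155 a library.

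*Slc25a31* (chr3:40708855-40726096, plus strand) encodes the ADP/ATP carrier of germ cell mitochondria. It had 46.1 and 52.3 TPM in *Usp17le* OE, 28.4 and 27.7 TPM in *Usp17le* OE-*Dux* KD, 17.1 and 12.9 TPM in *Dux* KD-*Usp17le* OE and 12.3 and 8.98 TPM in *Dux* KD, against 15.4 and 20.5 TPM in WT. It was 2.75-fold higher in *Usp17le* OE than in WT (1.46 ± 0.19, adjusted p = 0.000162), lower in *Dux* KD than in WT (-0.75 ± 0.19, adjusted p = 0.00824) and lower in *Usp17le* OE-*Dux* KD than in *Usp17le* OE (-0.81 ± 0.19, adjusted p = 0.00584). Its somatic relatives *Slc25a4* and *Slc25a5* were far more abundant and were not called higher in *Usp17le* OE. *Slc25a4* had 950.4 and 971 TPM in *Usp17le* OE, against 1004 and 990.0 TPM in WT, and was not called as deposited (-0.053 ± 0.042, adjusted p = 0.275) but was called lower after scaling (-0.32, adjusted p = 7e-06). *Slc25a5* had 793 and 809.9 TPM in *Usp17le* OE, against 1099 and 1119 TPM in WT, and was lower (-0.47 ± 0.037, adjusted p = 2.6e-07). Taken from TPM, *Slc25a31* was 2.64% and 2.93% of the sum of both in *Usp17le* OE, against 0.732% and 0.974% in WT.

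The axis genes differed in size of response. *Sycp3* (chr10:88459569-88473236, plus strand) encodes a filament protein of the lateral element of the synaptonemal complex. It had 41.9 and 40.1 TPM in *Usp17le* OE, against 25.9 and 27.0 TPM in WT, and every hairpin library lay below WT. It had 20.7 and 16.9 TPM in *Usp17le* OE-*Dux* KD, 20.5 and 17.8 TPM in *Dux* KD-*Usp17le* OE and 20.1 and 19.5 TPM in *Dux* KD. *Sycp3* was higher in *Usp17le* OE than in WT (0.63 ± 0.10, adjusted p = 0.000118) and lower in *Usp17le* OE-*Dux* KD than in *Usp17le* OE (-1.13 ± 0.10, adjusted p = 8.13e-07), the most negative value of the members in that comparison on the deposited scale. The gene's exons overlap those of *Chpt1*, a phospholipid synthesis gene on the opposite strand, by 660 bases. The authors counted with default parameters, which ignore strand and leave out reads that overlap both genes, so such reads would add to neither. *Chpt1* had 9.78 and 11.5 TPM in *Usp17le* OE and 6.82 and 5.79 TPM in *Usp17le* OE-*Dux* KD, against 6.63 and 6.64 TPM in WT. Its higher values stood in the same group. Whether the annotation used for counting holds the same overlap is not stated, and to that extent the *Sycp3* values stay uncertain.

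*Hormad1* (chr3:95559677-95587671, plus strand), whose protein coats unsynapsed axes, had the group means lying closest together. It had 55.0 and 62.7 TPM in *Usp17le* OE, 53.4 and 44.3 TPM in *Usp17le* OE-*Dux* KD, 47.4 and 46.6 TPM in *Dux* KD-*Usp17le* OE and 43.8 and 49.9 TPM in *Dux* KD, against 46.1 and 49.7 TPM in WT. The call in *Usp17le* OE against WT (0.29 ± 0.10, adjusted p = 0.0182) was lost after scaling (0.032, adjusted p = 0.744), without WT replicate 1 (adjusted p = 0.115) and without *Usp17le* OE replicate 2 (adjusted p = 0.149). The call in *Usp17le* OE-*Dux* KD cells against *Usp17le* OE (-0.27 ± 0.10, adjusted p = 0.0285) was lost without *Usp17le* OE replicate 2 (-0.18, adjusted p = 0.203) and without *Usp17le* OE-*Dux* KD replicate 2 (-0.14, adjusted p = 0.281), and was larger after scaling (-0.58). Of its transcripts, 22.9% of 50-base stretches also occur in other annotated genes, chiefly *Gm15529*.

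The meiotic cohesin genes were the members called lower in *Usp17le* OE as deposited. *Stag3* (chr5:138280240-138312393, plus strand) encodes the subunit that replaces STAG1 and STAG2 in meiosis. It had 11.2 and 14.5 TPM in *Usp17le* OE, 40.3 and 39.8 TPM in *Usp17le* OE-*Dux* KD, 33.7 and 36.4 TPM in *Dux* KD-*Usp17le* OE and 36.8 and 41.6 TPM in *Dux* KD, against 28.1 and 27.4 TPM in WT. The *Usp17le* OE libraries lay below all others. *Stag3* fell to a mean of 12.8 TPM in *Usp17le* OE, 0.461 times WT (-1.12 ± 0.11, adjusted p = 1.92e-06), and was 3.13-fold higher in *Usp17le* OE-*Dux* KD than in *Usp17le* OE (1.65 ± 0.11, adjusted p = 8.01e-08). In *Dux* KD against WT it was 0.49 ± 0.11 as deposited (adjusted p = 0.00159), 0.094 after scaling (adjusted p = 0.407) and -0.079 with a correction for gene length, so the hairpin by itself gave no direction that held on every scale.

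*Smc1b* (chr15:85064689-85131964, minus strand) encodes the meiotic form of SMC1. It had 11.0 and 12.7 TPM in *Usp17le* OE, 38.5 and 41.4 TPM in *Usp17le* OE-*Dux* KD, 24.7 and 26.9 TPM in *Dux* KD-*Usp17le* OE and 28.0 and 32.3 TPM in *Dux* KD, against 20.08 and 19.05 TPM in WT. By group means the order was that of *Stag3*. *Smc1b* was lower in *Usp17le* OE than in WT (-0.72 ± 0.10, adjusted p = 2.58e-05) and 3.36-fold higher in *Usp17le* OE-*Dux* KD than in *Usp17le* OE (1.75 ± 0.10, adjusted p = 1.45e-08). In *Dux* KD against WT it was 0.62 ± 0.10 as deposited (adjusted p = 0.000103), 0.22 after scaling (adjusted p = 0.0437) and 0.059 with the length correction (adjusted p = 0.565). Both are long genes, with 4228 bases in the table for *Stag3* and 4040 for *Smc1b* against 1122 to 2964 for the other members. With the length correction *Stag3* was -1.43 and *Smc1b* -1.03 in *Usp17le* OE against WT, so neither fall was smaller than as deposited.

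The mitotic counterparts gave a partly different picture. *Smc1a* had 34.1 and 36.3 TPM in *Usp17le* OE and 95.7 and 88.8 TPM in *Usp17le* OE-*Dux* KD, against 48.0 and 47.1 TPM in WT, and was lower in *Usp17le* OE than in WT (-0.43 ± 0.068, adjusted p = 0.000107), as *Smc1b* was. *Stag1* (0.091 ± 0.081, adjusted p = 0.339) was not called there as deposited but was called lower after scaling (-0.17, adjusted p = 0.0320), and *Stag2* (0.29 ± 0.081, adjusted p = 0.00666) was higher as deposited and 0.033 after scaling. In TPM, *Stag3* was 24.7% and 29.4% of the sum of *Stag1* and *Stag2* in *Usp17le* OE, against 69.7% and 63.9% in WT and 66.3% and 67.6% in *Usp17le* OE-*Dux* KD. *Smc1b* was 32.1% and 35.0% of *Smc1a* in *Usp17le* OE, against 41.8% and 40.5% in WT. The share thus differed far more for *Stag3* than for *Smc1b*.

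**Figure D3:**
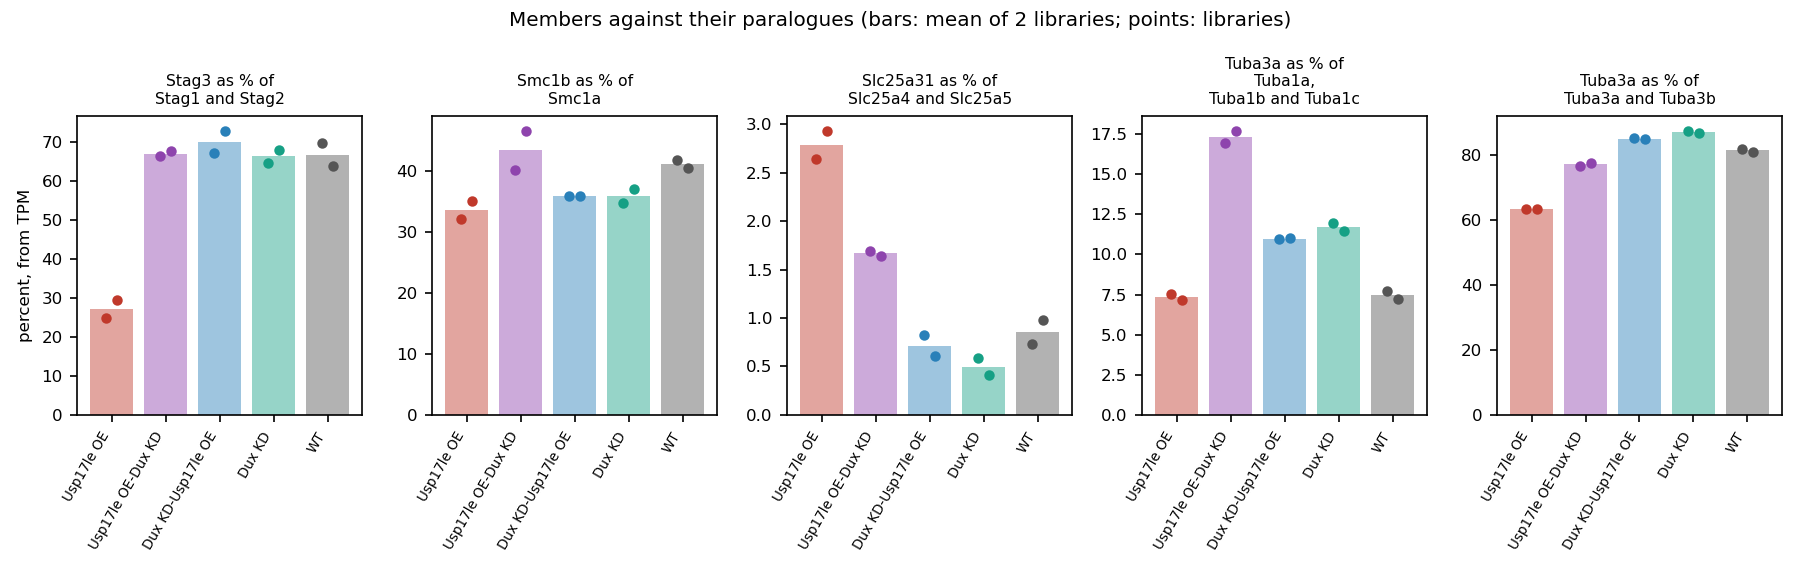
Percent, computed from TPM (y axes, from 0), of a member relative to its paralogues in each group; bars are means of 2 libraries and points are libraries. *Stag3* drops in *Usp17le* OE alone, to 24.7% and 29.4% against 69.7% and 63.9% in WT. *Tuba3a* stands at 10.95% or more of the *Tuba1* genes in every hairpin library, against 7.69% and 7.23% in WT.

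*Tuba3a* (chr6:125278274-125286042, minus strand), an alpha-tubulin gene expressed mainly in testis, was high wherever the hairpin was present. It had 108 and 107 TPM in *Usp17le* OE, 393 and 386 TPM in *Usp17le* OE-*Dux* KD, 208 and 216 TPM in *Dux* KD-*Usp17le* OE and 268 and 286 TPM in *Dux* KD, against 91.4 and 83.2 TPM in WT. All 6 hairpin libraries stood above all 4 others. It was 3.17-fold higher in *Dux* KD than in WT (1.67 ± 0.055, adjusted p = 2.03e-09) and 3.63-fold higher in *Usp17le* OE-*Dux* KD than in *Usp17le* OE (1.86 ± 0.055, adjusted p = 1.81e-10). The 1.23-fold difference of *Usp17le* OE from WT (adjusted p = 0.000422) was not called after scaling (0.034, adjusted p = 0.572).

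*Tuba3b* (chr6:145615757-145621479, plus strand) shares 473 of the 1460 stretches of 50 bases in the *Tuba3a* transcripts, so reads on those stretches do not tell the copies apart. *Tuba3a* also overlaps the antisense *4930417O13Rik* by 75 exon bases, a gene with 0 and 0 TPM in *Usp17le* OE-*Dux* KD and 0.190 and 0 TPM in *Usp17le* OE. The copies differed in *Usp17le* OE. *Tuba3b* had 62.6 and 62.1 TPM in *Usp17le* OE, 120.0 and 112 TPM in *Usp17le* OE-*Dux* KD and 38.3 and 44.4 TPM in *Dux* KD, against 20.4 and 19.5 TPM in WT. It was 3.12-fold higher in *Usp17le* OE than in WT (1.64 ± 0.076, adjusted p = 2.99e-09). *Tuba3a* made up 63.3% and 63.2% of the pair in *Usp17le* OE, 76.6% and 77.5% in *Usp17le* OE-*Dux* KD cells and 87.5% and 86.6% in *Dux* KD cells, against 81.8% and 81.0% in WT. The widely expressed *Tuba1b* was also higher in *Dux* KD than in WT (1.15 ± 0.047, adjusted p = 5.17e-09), and *Tuba3a* was 11.9% and 11.5% of the sum of *Tuba1a*, *Tuba1b* and *Tuba1c* in *Dux* KD, against 7.69% and 7.23% in WT.

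**Figure D4:**
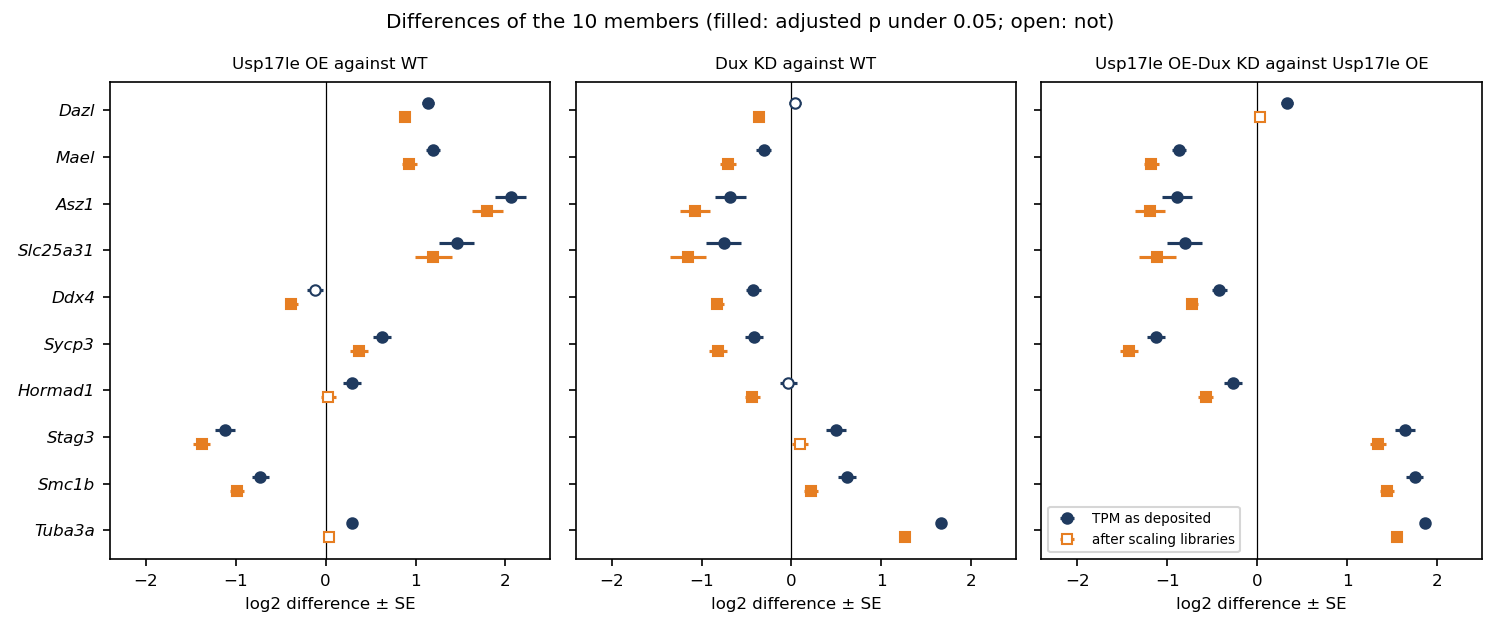
Log2 difference (x axis, ± SE) of each member in 3 comparisons, from TPM as deposited (circles) and after scaling (squares); filled symbols passed an adjusted p under 0.05. *Stag3*, *Smc1b* and *Tuba3a* lie to the right when the hairpin was added to *Usp17le* OE (1.65, 1.75 and 1.86), while *Sycp3*, *Asz1*, *Mael* and *Slc25a31* lie to the left.

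Whether the hairpin acted differently in overexpressing and in unmodified cells was tested as a difference of differences, with *Usp17le* OE-*Dux* KD against *Usp17le* OE on one side and *Dux* KD against WT on the other. Of the members, 3 were higher by this measure and 2 lower, against 15.8% and 28.2% of all genes, and 4 and 2 after scaling. The hairpin's difference was more positive in overexpressing cells for *Stag3* by 1.15 ± 0.15 (adjusted p = 9.35e-05) and for *Smc1b* by 1.13 ± 0.14 (adjusted p = 3.86e-05). It was more negative for *Sycp3* (-0.71 ± 0.14, adjusted p = 0.00148) and for *Mael* (-0.56 ± 0.11, adjusted p = 0.00177). *Dazl* was called (0.29 ± 0.10, adjusted p = 0.0266), but not after leaving out any one of WT replicate 2, *Usp17le* OE replicate 1, *Dux* KD replicate 1 or either *Usp17le* OE-*Dux* KD library (adjusted p = 0.0550 to 0.107). For *Asz1* (-0.21 ± 0.24, adjusted p = 0.502) and *Slc25a31* (-0.052 ± 0.27, adjusted p = 0.894) the difference did not pass the test. *Usp17le* itself had 11.1 and 10.6 TPM in *Usp17le* OE-*Dux* KD, against 28.7 and 35.6 TPM in *Usp17le* OE. The hairpin and this lower *Usp17le* level cannot be told apart in this measure.

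The cells with both manipulations were also set against WT. In *Usp17le* OE-*Dux* KD, 7 members were higher and 2 lower than in WT, against 59.5% and 11% of all genes, and 4 and 4 after scaling. *Tuba3a* was 4.46-fold, *Dazl* 2.77-fold, *Asz1* 2.25-fold and *Smc1b* 2.03-fold higher than in WT, and these 4 stayed higher after scaling. *Ddx4* (-0.54 ± 0.086) and *Sycp3* (-0.50 ± 0.10) were lower on both scales. *Mael* was 0.32 as deposited and -0.24 after scaling, both called, and *Stag3* was 0.53 as deposited and -0.039 after scaling, so no direction is given for them. The call for *Slc25a31* (0.65 ± 0.19, adjusted p = 0.0145) was lost after scaling (0.088), without WT replicate 1 and without either *Usp17le* OE-*Dux* KD library (adjusted p = 0.0527 to 0.0885).

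The libraries labelled *Dux* KD-*Usp17le* OE showed few differences from *Dux* KD in the members. Of these, 0 were higher and 1 lower by limma, on both scales, against 2.88% and 8.3% of all genes. At an unadjusted p under 0.05, 1 was higher and 3 lower, and limma-voom on the recovered reads called 1 higher and 1 lower. Of the 20 genes of the 2-cell embryo, 11 were higher and 0 lower in the same comparison (9 and 0 after scaling). Without *Dux* and the *Usp17l* genes 9 of 14 were higher and 0 lower. *Usp17le* itself overlapped WT, but its 0.941 and 1.63 TPM (44 and 56 reads) stood above the 0.466 and 0.424 TPM (17 and 20 reads) of *Dux* KD. *Tuba3a* was the member called lower (-0.39 ± 0.055, adjusted p = 0.00417), a call lost without *Dux* KD-*Usp17le* OE replicate 1 (-0.36, adjusted p = 0.0612). *Slc25a31* stood above *Dux* KD in both libraries without passing the test (0.50 ± 0.19, adjusted p = 0.134), but did so without *Dux* KD replicate 1 (0.72, adjusted p = 0.0480). The number of members called here was 0 without *Dux* KD-*Usp17le* OE replicate 1, 3 without *Dux* KD replicate 1 and 2 without either *Usp17le* OE library. Against WT, 3 members were higher and 3 lower in these libraries, where 44.8% and 7.62% of all genes were, and 1 and 6 after scaling. *Tuba3a* (1.28 ± 0.055) was higher on both scales, and *Ddx4* (-0.32 ± 0.086), *Sycp3* (-0.47 ± 0.10) and *Asz1* (-0.71 ± 0.17) were lower on both. The *Ddx4* call was lost without WT replicate 2 (adjusted p = 0.0731) and without *Dux* KD-*Usp17le* OE replicate 1 (adjusted p = 0.0896). *Smc1b* (0.40 ± 0.10) and *Stag3* (0.33 ± 0.11) were called higher as deposited only.

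Between the 2 orders of manipulation, *Dux* KD-*Usp17le* OE had 0 members higher and 6 lower than *Usp17le* OE-*Dux* KD, against 7.97% and 37.4% of all genes, and 2 and 5 after scaling. At an unadjusted p under 0.05, 1 was higher and 6 lower. *Asz1* (-1.88 ± 0.17), *Dazl* (-1.62 ± 0.068) and *Slc25a31* (-0.91 ± 0.19) had the most negative values. Overexpression on top of the hairpin and overexpression alone were compared as a further difference of differences, *Dux* KD-*Usp17le* OE against *Dux* KD on one side and *Usp17le* OE against WT on the other. It had 2 members higher and 6 lower, against 15.2% and 42.7% of all genes, and 3 and 4 after scaling. The overexpression difference was more negative in hairpin cells for *Asz1* (-2.09 ± 0.24, adjusted p = 1.63e-05), *Dazl* (-1.33 ± 0.10, adjusted p = 3.02e-07) and *Mael* (-1.04 ± 0.11, adjusted p = 8.53e-06). It was more positive for *Stag3* (0.96 ± 0.15, adjusted p = 0.000194). With *Usp17le* at the WT level in one arm, an effect of the hairpin and a lack of overexpression cannot be told apart.

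Other genes of the same pathways were counted from lists, to be read against all genes tested. Of these, 45.5% were higher and 20.9% lower in *Usp17le* OE than in WT (33% and 33% after scaling), 51.4% and 10.7% in *Dux* KD against WT, and 45.7% and 18.6% when the hairpin was added to overexpressing cells. Of 24 piRNA pathway genes tested, 11 were higher and 3 lower in *Usp17le* OE than in WT (8 and 5 after scaling), with a median of 0.25 beside 0.26 over all genes. *Tex19.1*, which restrains retrotransposons in germ cells, averaged 467 TPM in *Usp17le* OE and 72.5 TPM in WT (2.68 ± 0.072, adjusted p = 3.72e-11), and its relative *Tex19.2* averaged 42.2 and 6.59 TPM (2.66 ± 0.10, adjusted p = 6.78e-10). *Pld6*, the mitochondrial nuclease of piRNA biogenesis, was lower, at 12.7 TPM in *Usp17le* OE and 28.3 TPM in WT (-1.15 ± 0.083, adjusted p = 1.18e-07). In *Usp17le* OE-*Dux* KD cells against *Usp17le* OE, 9 were higher and 4 lower (6 and 8 after scaling), *Tex19.1* (-0.85 ± 0.072, adjusted p = 6.35e-07) and *Tex19.2* (-1.24 ± 0.10, adjusted p = 4.5e-07) among the lower. In *Dux* KD against WT 9 were higher and 1 lower, and 3 and 6 after scaling.

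Of 13 further genes of the meiotic axis and synapsis, 9 were higher and 2 lower in *Usp17le* OE than in WT (7 and 2 after scaling). *Sycp1*, the transverse filament of the synaptonemal complex, averaged 11.8 TPM in *Usp17le* OE and 3.60 TPM in WT (1.69 ± 0.15, adjusted p = 1.02e-06), while the central element gene *Syce2* averaged 74.0 and 151 TPM (-1.03 ± 0.064, adjusted p = 3.88e-08). In *Usp17le* OE-*Dux* KD cells against *Usp17le* OE 4 were higher and 7 lower (1 and 7 after scaling). There the meiotic cohesin gene *Rec8* was higher (0.84 ± 0.072, adjusted p = 5.96e-07), as *Stag3* and *Smc1b* were, and *Syce3* was lower (-1.04 ± 0.16, adjusted p = 7.63e-05).

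Recombination genes gave 7 higher and 3 lower of 19 in *Usp17le* OE against WT, and 5 and 5 after scaling. *Dmc1*, the meiotic recombinase, averaged 13.4 TPM in *Usp17le* OE and 5.77 TPM in WT (1.20 ± 0.17, adjusted p = 5.2e-05), but *Mnd1* (-1.08 ± 0.058, adjusted p = 9.84e-09), which assists it, and *Hsf2bp* (-1.45 ± 0.069, adjusted p = 3.97e-09) were lower. *Hsf2bp* was higher again when the hairpin was added (1.33 ± 0.069, adjusted p = 9.86e-09). Genes of meiotic entry gave 1 higher and 3 lower of 9 in *Usp17le* OE against WT (0 and 5 after scaling). *Stra8*, the gatekeeper of meiosis, averaged 76.8 TPM in *Usp17le* OE and 113 TPM in WT (-0.56 ± 0.062, adjusted p = 6.07e-06), and *Dmrt1*, a gonadal transcription factor, averaged 16.9 and 35.4 TPM (-1.07 ± 0.078, adjusted p = 1.46e-07). With the hairpin added, 6 of the 9 were higher and 0 lower than in *Usp17le* OE (4 and 2 after scaling).

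Among 24 other germline genes, 16 were higher and 5 lower in *Usp17le* OE than in WT (8 and 6 after scaling), among them *Taf7l*, a testis form of a TFIID subunit, at 28.7 TPM in *Usp17le* OE and 7.12 TPM in WT (1.99 ± 0.16, adjusted p = 2.65e-07). *Taf7l* was also lower in *Dux* KD than in WT (-1.12 ± 0.16, adjusted p = 4.16e-05) and lower in *Usp17le* OE-*Dux* KD than in *Usp17le* OE (-1.54 ± 0.16, adjusted p = 2.71e-06). The 2-cell genes were called in 1 direction. All 20 tested were higher in *Usp17le* OE than in WT, and none was higher and 16 lower in *Dux* KD than in WT, on both scales. The list holds *Dux* and 5 *Usp17l* genes, *Usp17le* among them, so it includes the manipulated genes, and without these 6 the counts were 14 of 14 higher in *Usp17le* OE and 13 of 14 lower in *Dux* KD. The summed TPM of the whole list was 966 to 1074 in *Usp17le* OE, 144 in both *Usp17le* OE-*Dux* KD libraries, 28.2 to 29.5 in *Dux* KD-*Usp17le* OE and 7.46 to 8.33 in *Dux* KD, against 43.9 to 45.6 in WT. By group means, *Mael*, *Slc25a31* and *Hormad1* had the same order of groups. For *Hormad1* the means outside *Usp17le* OE lay between 46.8 and 48.9 TPM with overlapping libraries, so its order there is uncertain.

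Genes linked to the silencing of germline promoters, and mitotic cohesin genes, were counted in the same way. Of all genes, 45.5% were higher and 20.9% lower in *Usp17le* OE against WT (33% and 33% after scaling). In *Dux* KD against WT these shares were 51.4% and 10.7% (28.8% and 25.3% after scaling). Of 14 PRC1.6 genes, 8 were higher and 2 lower in *Usp17le* OE than in WT (7 and 5 after scaling). *Max* averaged 75.3 TPM in *Usp17le* OE and 37.2 TPM in WT (1.02 ± 0.061, adjusted p = 2.72e-08), and *E2f6* 26.1 and 15.9 TPM (0.72 ± 0.084, adjusted p = 8.99e-06). In *Dux* KD against WT 13 were higher and 1 lower (9 and 2 after scaling). The DNA methylation list also holds *Tet1*, *Tet2* and *Tet3*, which act in methylation removal, so its counts are not of silencing genes alone. Of its 8 genes tested, 5 were higher and 1 lower in *Usp17le* OE (4 and 3 after scaling). *Uhrf1*, which brings the maintenance methyltransferase to DNA, was the lower one, at 90.0 TPM in *Usp17le* OE and 129.6 TPM in WT (-0.53 ± 0.052, adjusted p = 2.06e-06). Of 9 H3K9 methylation genes, 7 were higher and 2 lower (3 and 2 after scaling). *Ehmt2*, a histone H3 lysine 9 methyltransferase, averaged 18.5 TPM in *Usp17le* OE and 51.1 TPM in WT (-1.46 ± 0.057, adjusted p = 7.79e-10) and was higher when the hairpin was added (1.68 ± 0.057, adjusted p = 4.3e-10). Of 13 mitotic cohesin genes, 7 were higher and 2 lower in *Usp17le* OE than in WT (5 and 4 after scaling), and 12 higher and 0 lower in *Dux* KD (8 and 0). The limma counts of 0 given here on the deposited values, for mitotic cohesin in *Dux* KD, for meiotic entry with the hairpin added and for the 2-cell genes, were also 0 at an unadjusted p under 0.05.

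**Figure D5:**
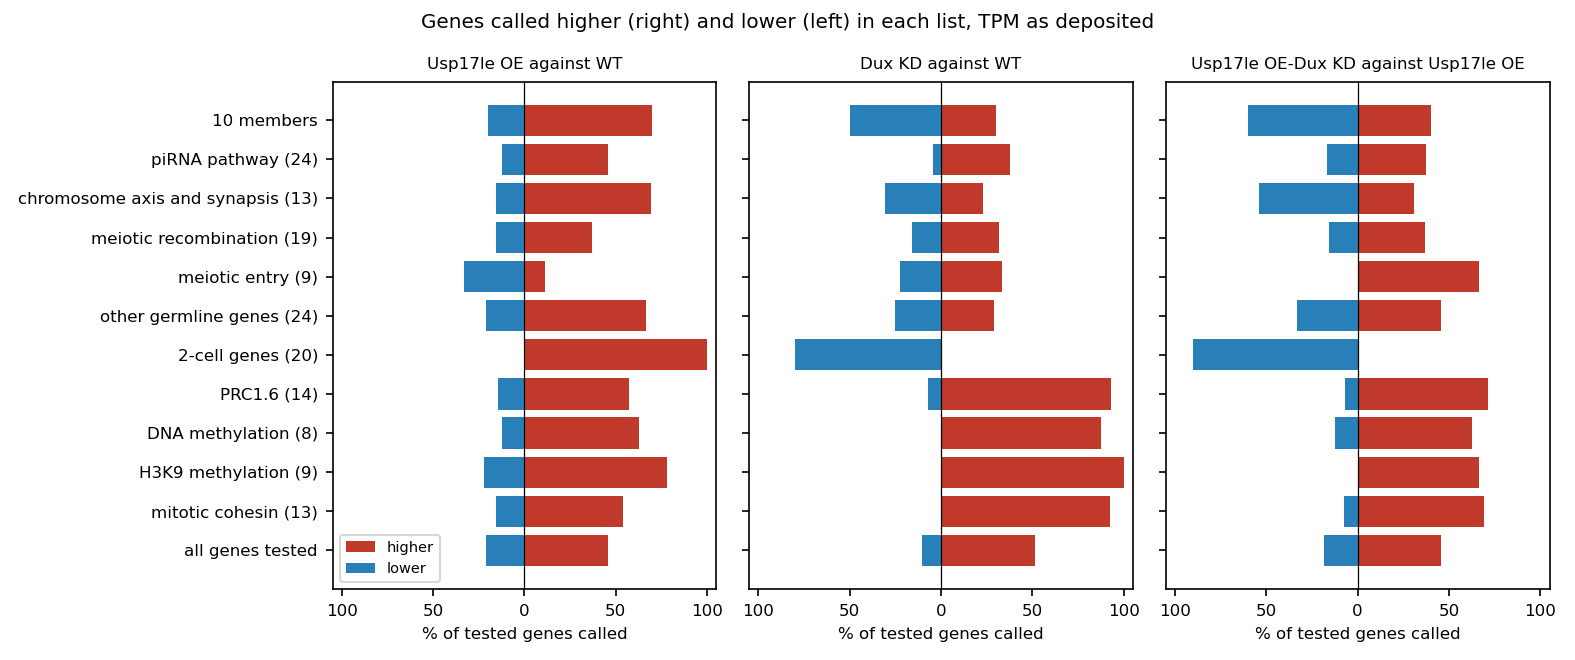
Share of the tested genes of each list (number in brackets) called higher (bars to the right) and lower (bars to the left), in percent (x axis), in 3 comparisons, from TPM as deposited. The 2-cell genes lie on one side in each comparison (20 of 20 higher in *Usp17le* OE against WT), while the 10 members and the axis and synapsis genes have calls on both sides.

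Across the 10 libraries the members fell into sets with like profiles, given as Pearson r of log2(TPM + 0.1) without a test, since the points share groups. *Mael*, *Slc25a31* and *Asz1* ran together (r = 0.957, 0.945 and 0.939 for the pairs), as did *Stag3* and *Smc1b* (0.947). *Sycp3* ran against *Stag3* (-0.963), and *Ddx4* against *Tuba3a* (-0.938). Over 12640 genes, the profile most like that of *Asz1* was *Gm364* (r = 0.985), followed by *Ubtfl1* and *Cidea*. For *Slc25a31* it was *Pramef25* (0.988), then *Scn3b* and *Tmem92*, for *Mael* *2500002B13Rik* (0.994), and for *Dazl* *Slc1a1* (0.981). For *Stag3* it was *Uevld* (0.995), for *Smc1b* *Rgl1* (0.992), for *Tuba3a* *Acap2* (0.996), for *Sycp3* *Tmco1* (0.986), for *Hormad1* *Fancb* (0.961) and for *Ddx4* the ribosomal protein gene *Rps7* (0.975).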

How the data were processed

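RNA-seq libraries of mouse ESCs, 2 in each of 5 groups, were used. According to the labels and the study's methods, the authors used Trim Galore for trimming, HISAT2 with mm10 for alignment, featureCounts at default parameters for counting unique alignments and DESeq2 for testing. Versions are not given in the sources used here. The deposited values are TPM with a gene length per row. TPM times length came out whole for 100.0% of values (tolerance 0.01), which gave 32188285 to 50457228 reads a library, and members had 140 reads or more in each. TPM has a fixed total, so a higher share of some genes lowers all others. In the table, 27 gene symbols had been turned into dates and were left unnamed.

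log2(TPM + 0.1) of the 14706 genes that reached 0.5 TPM in 2 or more libraries was fitted with 1 mean per group in limma 3.58.1 (R 4.3.3, trend and robust options, two-sided), for 7 comparisons and 2 differences of effects. Benjamini-Hochberg adjustment ran over all genes tested, and an adjusted p under 0.05 was called. Fold changes are on this scale. The fit with each library divided by the median of its gene ratios stands beside it (14682 genes). The fits were tested on simulated data. Comparisons share libraries, so they are not independent. The members and gene lists were chosen with earlier results of these data known. All members were named, with their paralogues, up to 4 genes with the smallest adjusted p in each list and up to 3 genes with the most similar profile. Gene positions are those of GENCODE M21 (GRCm38), and start regions come from RefSeq. Alternatives were other pseudocounts, filters, fits and scalings, voom on the recovered reads, a gene length correction, a replicate block and leaving out each library.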

Additional observations from a re-analysis of the deposited data

Results flagged for a closer look

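For 8 members the difference labelled as overexpression was not the same with and without the hairpin, by the difference of effects in limma (*Dux* KD-*Usp17le* OE minus *Dux* KD, less *Usp17le* OE minus WT, adjusted p under 0.05). The values on the log2 scale were -2.089 for *Asz1*, -1.328 for *Dazl*, -1.039 for *Mael*, -0.9638 for *Slc25a31*, -0.6825 for *Tuba3a*, -0.6819 for *Sycp3*, 0.504 for *Smc1b* and 0.9581 for *Stag3*. Of the members 2 were higher and 6 lower, where 15.2% and 42.7% of all genes tested were. *Usp17le* itself was at the WT level in the *Dux* KD-*Usp17le* OE libraries. *Sycp3* (-0.33) and *Slc25a31* (-0.61) did not pass the test after scaling, and *Slc25a31* not without *Usp17le* OE replicate 2 (-0.87, adjusted p = 0.0592).

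For 5 members the difference labelled as knockdown was not the same with and without overexpression (*Usp17le* OE-*Dux* KD minus *Usp17le* OE, less *Dux* KD minus WT). The values were 1.152 for *Stag3*, 1.133 for *Smc1b*, 0.2935 for *Dazl*, -0.5613 for *Mael* and -0.7103 for *Sycp3*. All 5 passed after scaling, at 1.25, 1.23, 0.39, -0.47 and -0.62. As deposited 3 members were higher and 2 lower, where 15.8% and 28.2% of all genes tested were. *Usp17le* itself was lower in *Usp17le* OE-*Dux* KD than in *Usp17le* OE, so the hairpin and the lower *Usp17le* level cannot be told apart. Groups of 2 libraries were not searched for single libraries that stand apart.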

How the results depend on the processing

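Of 1850 values of members under the alternatives, 1736 kept their call or their lack of one, 49 lost the call, 49 gained one and 16 that were called under at least one of the settings changed sign. Of 513 values called under neither setting, which count among the 1736, 39 changed sign. Of 62 calls, 44 stood under every alternative run. Pseudocounts of 0.01 and 1, a filter at 1 TPM and no filter changed no member's call. After scaling, *Dazl* in *Dux* KD against WT was -0.36, and in *Usp17le* OE-*Dux* KD against WT *Mael* was -0.24, *Hormad1* -0.54 and *Stag3* -0.039. With voom on the recovered reads the same 4 were -0.37, -0.24, -0.55 and -0.037, and *Hormad1* in *Dux* KD-*Usp17le* OE cells against *Usp17le* OE-*Dux* KD was 0.21. With the gene length correction *Dazl* (-0.43) and *Stag3* (-0.079) in *Dux* KD against WT, *Hormad1* (-0.36) and *Stag3* (-0.23) in *Usp17le* OE-*Dux* KD against WT, *Smc1b* (-0.028) and *Stag3* (-0.11) in *Dux* KD-*Usp17le* OE cells against WT, and *Dazl* in *Usp17le* OE-*Dux* KD cells against *Usp17le* OE (-0.012) changed sign. The cause was not tested. Scaling also moved the split of all genes called higher and lower in *Usp17le* OE against WT to 33% and 33%, and in *Dux* KD against WT to 28.8% and 25.3%. Members called in *Dux* KD-*Usp17le* OE cells against *Dux* KD numbered 0 without the trend and robust options and 2 with voom, against 1. Leaving out 1 library gave 8 to 9 calls in *Usp17le* OE against WT, 7 to 8 in *Dux* KD against WT, 8 to 9 in *Usp17le* OE-*Dux* KD against WT, 4 to 7 in *Dux* KD-*Usp17le* OE cells against WT, 9 to 10 in *Usp17le* OE-*Dux* KD cells against *Usp17le* OE, 0 to 3 in *Dux* KD-*Usp17le* OE cells against *Dux* KD, 6 to 8 between the double groups, and 7 to 9 and 4 to 6 for the differences of the overexpression and the knockdown effects. Libraries with the same replicate number did not deviate together (r of -0.051 to 0.048 over 10 pairs of groups), so the numbers were not taken as pairs. With the replicate block 1 call changed, *Ddx4* in *Dux* KD-*Usp17le* OE cells against *Usp17le* OE-*Dux* KD (0.22, adjusted p = 0.0389), which brought the members called there to 7 from 6. Leaving out the *Dux* KD-*Usp17le* OE group, an alternative chosen after seeing the data, changed no call among 50 values. The spread rests on 2 libraries a group, which limits the size of difference that can be called.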

Other observations

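Genes that specify primordial germ cells, the embryonic founders of the germ line, were counted in the same way, beside 45.5% of all genes higher and 20.9% lower in *Usp17le* OE against WT and 51.4% and 10.7% in *Dux* KD against WT. Of 11 tested, 5 were higher and 2 lower in *Usp17le* OE than in WT (5 and 4 after scaling), and 8 and 0 in *Dux* KD against WT (7 and 3 after scaling), the 0 also standing at an unadjusted p under 0.05. *Prdm1*, a repressor of somatic genes in these founders, averaged 7.58 TPM in *Dux* KD and 1.84 TPM in WT (1.99 ± 0.16, adjusted p = 3.47e-07 by limma) and 1.74 TPM in *Usp17le* OE. *Tfap2c*, another of the early factors, averaged 60.3 TPM in *Dux* KD and 30.6 TPM in WT (0.98 ± 0.072, adjusted p = 1.97e-07), and *Kit*, the receptor of migrating germ cells, 72.0 and 27.3 TPM (1.39 ± 0.067, adjusted p = 1.02e-08).

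*Nanos3*, needed for survival of these cells, was highest in *Usp17le* OE, with a mean of 17.0 TPM in *Usp17le* OE and 4.95 TPM in WT (1.77 ± 0.24, adjusted p = 5.07e-05), and 2.58 TPM in *Usp17le* OE-*Dux* KD (-2.70 ± 0.24 when set against overexpression alone, adjusted p = 1.64e-06). *Dppa2*, an activator of *Dux* that is expressed in ESCs and germ cells, averaged 322 TPM in *Usp17le* OE and 57.1 TPM in WT (2.49 ± 0.057, adjusted p = 7.36e-12). It averaged 136 TPM in *Usp17le* OE-*Dux* KD. The genes named here were chosen after their values were seen.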
